A study of Homo sapiens with 6 samples.

Results

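The 10 genes that encode the integrin subunits carried by white blood cells were followed in NB4 cells, a human acute promyelocytic leukemia line, after treatment with Tanshinone I (Tan I), a diterpene of Salvia miltiorrhiza. The members were chosen by symbol: ITGAL, ITGAM, ITGAX, ITGB2, ITGA4, ITGB1, ITGB7, ITGA5, ITGA6 and ITGAE. All 10 symbols were found, each on 1 row, among the 18625 genes of the human table, and none was absent. NB4 cells received DMSO alone or Tan I at 10 μM, in each case over 3 days, and total RNA was sequenced from 3 libraries per group. All libraries come from this 1 cell line, which carries the PML-RARA fusion, and nothing in the labels says whether replicates were separate cultures, so the spread between them may be technical. The list was put together with earlier results of the same comparison of Tan I with DMSO known. The differences between the groups are therefore given below as a description of these libraries and not as a test of the family.

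Integrins are cell surface receptors made of 1 α and 1 β subunit, and they bind either other cells or the extracellular matrix. ITGB2 (CD18) pairs with ITGAL (CD11a), ITGAM (CD11b) or ITGAX (CD11c) to form the β2 integrins of leukocytes, which bind ICAMs and, for ITGAM and ITGAX, the complement fragment iC3b. ITGB1 (CD29) pairs with ITGA4, ITGA5 or ITGA6 to form receptors for VCAM1 and fibronectin, for fibronectin, and for laminin, respectively. ITGB7 pairs with ITGA4 to bind the gut addressin MADCAM1, or with ITGAE (CD103) to bind E-cadherin. ITGAM and ITGAX are known to be acquired as myeloid cells mature, whereas ITGA4 is lost as neutrophil precursors mature. CD11b on the cell surface was the marker by which the study followed differentiation of these cells in flow cytometry; those measurements were not analysed here.

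ITGAL, ITGAM and ITGAX lie on chromosome 16 of GRCh38, all on the + strand. ITGAL (ENSG00000005844) spans chr16:30472658-30523567, ITGAM (ENSG00000169896) spans chr16:31259967-31332892 and ITGAX (ENSG00000140678) spans chr16:31355134-31382999. Only 22241 bases separate the end of ITGAM from the start of ITGAX, whereas 736399 bases lie between ITGAL and ITGAM. ITGB7 (ENSG00000139626, chr12:53191323-53207282) and ITGA5 (ENSG00000161638, chr12:54395261-54419266) both lie on the - strand of chromosome 12. ITGA4 (ENSG00000115232) lies at chr2:181457202-181538940 on the + strand, and its canonical transcript has 28 exons. The 250 bases before the RefSeq gene start (GRCh38.p14, 5′ to 3′, reading along the gene) are shown for ITGB7, the member with the largest difference, and for ITGAM, which encodes CD11b. Capitals mark the letters GAGGAA, the core bound by the myeloid factor PU.1, and GGGCGG, the GC box bound by Sp1, on either strand.
ITGB7 (chr12:53207252-53207501, - strand): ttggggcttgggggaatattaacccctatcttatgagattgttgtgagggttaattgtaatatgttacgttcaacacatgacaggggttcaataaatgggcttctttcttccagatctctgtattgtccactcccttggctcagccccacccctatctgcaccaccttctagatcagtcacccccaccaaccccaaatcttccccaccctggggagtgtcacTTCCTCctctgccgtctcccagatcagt
ITGAM (chr16:31259725-31259974, + strand): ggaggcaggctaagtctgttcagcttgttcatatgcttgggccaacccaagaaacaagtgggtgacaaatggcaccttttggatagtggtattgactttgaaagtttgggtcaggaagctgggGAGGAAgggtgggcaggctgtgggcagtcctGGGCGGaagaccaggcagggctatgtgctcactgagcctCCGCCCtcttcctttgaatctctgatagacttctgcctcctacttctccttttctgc
Promoters were matched for 7 of the 10 members; ITGAL, ITGAX and ITGB2 were not among them. GAGGAA or its reverse complement TTCCTC stood in 4 of the 7 windows (ITGAM, ITGB1, ITGB7 and ITGAE), and in 23.6% of all 35116 promoter windows of this length. GGGCGG or CCGCCC stood in 3 of the 7 (ITGAM, ITGB1 and ITGA5), against 42.6% of all windows. TATAAA or TTTATA stood in 1 of the 7 (ITGA6), against 10.7% of all windows, and the RUNX core TGTGGT or ACCACA in 0, against 10.98%. No one of these motifs is contained in another. The RefSeq starts are not always those of GENCODE: the last 31 bases of the ITGB7 window, with its TTCCTC, lie inside the GENCODE span of the gene given above, and for ITGB1 the RefSeq start lies 47562 bases inside it. A match describes the letters in the window and does not show binding.

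The deposited values are normalized counts, that is, reads per gene divided by 1 size factor per library. They were whole multiples of the value of 1 read, and the recovered reads on the listed genes ran from 21502760 to 31679138 per library. Of the 18625 genes, 16887 averaged 10 or more normalized counts and were fitted with limma on log2(normalized count + 1), a scale on which differences of genes with few reads are understated; all 10 members passed this filter. The libraries did not group by treatment on the first principal component, which held 70.8% of the variance: Tan I replicate 3 (score 71.6) and DMSO replicate 2 (41.1) lay at one end, and DMSO replicate 1 (-48.0) and Tan I replicate 1 (-46.8) at the other. Of 6 promyelocyte markers, the 5 that were analysed (MPO, PRTN3, AZU1, CTSG and CD33) summed to 70959 to 76923 normalized counts in DMSO and to 41825 to 50123 in Tan I. MPO, the myeloperoxidase of primary granules, made up most of this difference, with 60389, 64107 and 63267 normalized counts in DMSO replicates 1, 2 and 3 and 33279, 39450 and 37076 in the Tan I replicates. The sum therefore mainly reflects MPO and not the list as a whole. CTSG was also lower in each Tan I library than in each DMSO library (log2 fold change -0.69). PRTN3 (-0.32), AZU1 (-0.25) and CD33 (0.07) overlapped between the groups, and CD33 had the higher mean in Tan I. As these are bulk libraries, fewer cells of a type and less RNA per cell cannot be told apart.

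Most of the subunits were well expressed in NB4 cells, and ITGB7 was the exception. Per kilobase of annotated exon, the order of the means in DMSO ran from ITGB2 through ITGA5, ITGAX, ITGA4, ITGB1, ITGAL, ITGA6, ITGAE and ITGAM to ITGB7. In Tan I the order was the same except that ITGAE stood above ITGA6. ITGB2 stood at 497 ± 40.3 normalized counts per kb in DMSO and 552 ± 50.6 in Tan I (SD over n = 3 libraries). Its mean level lay above 88.1% of the genes tested. ITGAM, the ninth, stood at 85.1 ± 7.96 per kb in DMSO and 79.3 ± 4.13 in Tan I (SD over n = 3 libraries), near the middle of all genes (above 50.1% of them). ITGB7 stood at 8.32 ± 1.57 per kb in DMSO and 14.4 ± 3.45 in Tan I (SD over n = 3 libraries), above only 14.9% of genes. In both groups, by the annotated lengths used, the 3 libraries of ITGA4 lay above those of ITGB1. Likewise in both groups, those of ITGB1 lay above those of ITGAL, and those of ITGAM above those of ITGB7. ITGA5 and ITGAX were apart in DMSO (442 ± 21.0 and 279 ± 15.4 per kb) and overlapped in Tan I (386 ± 18.8 and 365 ± 32.9; SD over n = 3 libraries). ITGB2 and ITGA5, and likewise ITGAX and ITGA4, overlapped in DMSO and were apart in Tan I, where ITGB2 stood at 552 per kb and ITGA4 at 209 ± 21.1. The neighbours from ITGAL to ITGAM overlapped in either group. The lengths used are all exonic bases of GENCODE release 44, from 4451 for ITGB7 to 14561 for ITGB1. A level per length depends on which transcripts the cells use, and is understated where these are shorter than the length used. Before division by length, the mean normalized count of ITGB1 was 2337, near the 2514 of ITGA4. The place of ITGB1 below ITGA4, and the size of its ratios to other genes, thus rest on the lengths chosen.

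**Figure D1:**
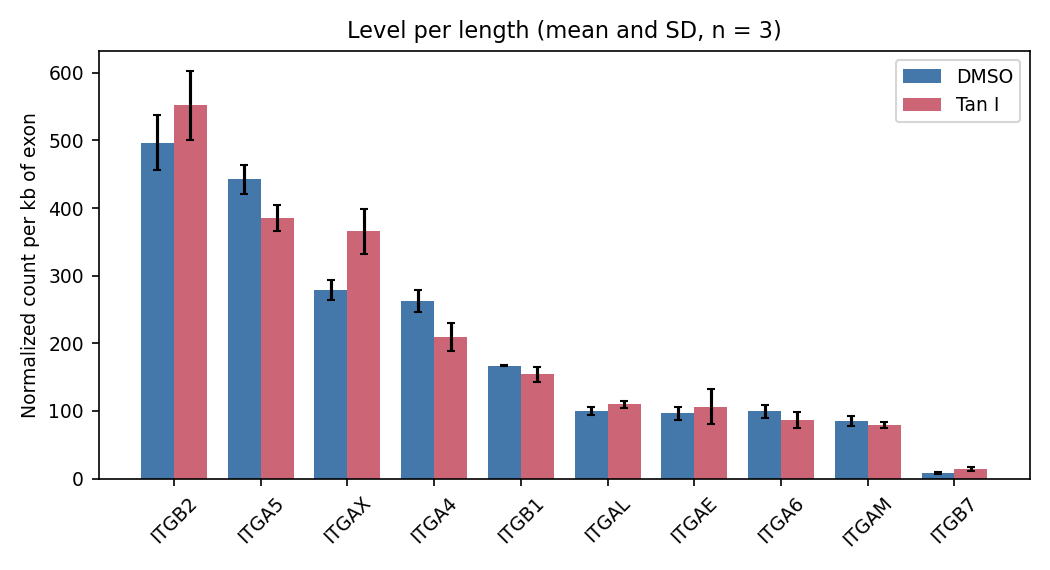
Level of each subunit gene per length, as normalized counts per kilobase of exon (vertical axis), with bars for the mean of 3 DMSO (blue) and 3 Tan I (red) libraries and error bars for the SD. ITGB2 is at the top in both groups, ITGAX is higher and ITGA4 lower in Tan I, and ITGB7 is far below the other 9 genes.

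Against DMSO, ITGAX and ITGB7 were higher and ITGA4 was lower in Tan I, while ITGAM differed by less than its spread. At an unadjusted p-value up to 0.05 and a log2 fold change of 0.25 or more in either direction, limma called these 3 of the 10 members, 2 higher and 1 lower. The same rule called 2.42% of all genes tested, 1.32% higher and 1.1% lower; since this comparison was known when the list was made, nothing is read from the count. After adjustment over all genes (limma, Benjamini-Hochberg), 0 members and 0% of all genes were called, and the adjusted p-value was 0.999 for each of the 10 members. The median log2 fold change was 0.01 over the members, 5 above and 5 below 0, and -0.0016 over all genes tested. For 5 of the 10 members the groups did not overlap, as for 7.89% of all genes tested: each Tan I library exceeded each DMSO library for ITGAX and ITGB7 (3.92% of all genes) and fell short of each for ITGA4, ITGB1 and ITGA5 (3.97% of all genes).

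**Figure D2:**
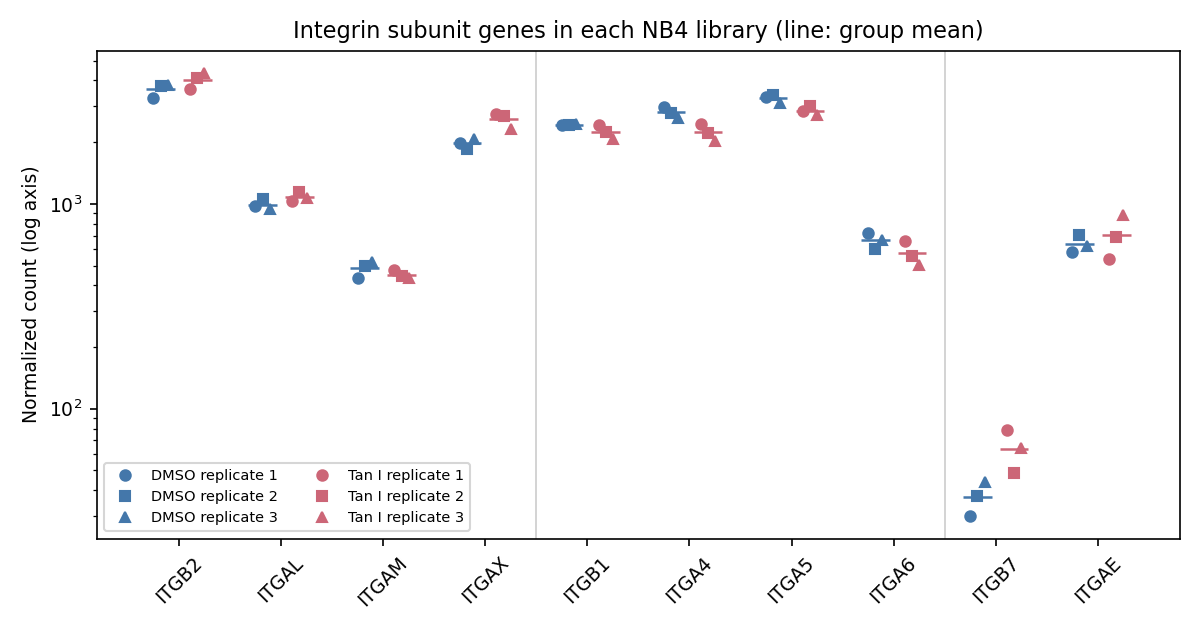
Normalized count of each subunit gene (vertical axis, log scale) in each of the 6 libraries, blue for DMSO and red for Tan I, with a symbol per replicate and a line at the group mean. The 3 Tan I points of ITGAX (2318 to 2743) and of ITGB7 (48.5 to 79.2) sit above all DMSO points, those of ITGA4 (2015 to 2463) sit below them, and those of ITGAM are mixed with them.

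Of the 4 genes of the β2 integrins, only ITGAX met the unadjusted rule; whether it differed from the other 3 was not tested. ITGAX had 1977, 1862 and 2080 normalized counts in DMSO replicates 1, 2 and 3, and 2743, 2696 and 2318 in Tan I replicates 1, 2 and 3. The groups were apart, with a gap from 2080 to 2318, and Tan I replicate 3 was the nearest to the controls. The log2 fold change of ITGAX was 0.39 (standard error 0.12, 95% interval 0.12 to 0.66, limma). It was 0.46 without Tan I replicate 3 and 0.33 after scaling the libraries to equal totals. The unadjusted call was lost in the rescaled libraries and without Tan I replicate 2. Monocyte and macrophage markers, which could accompany CD11c, were low: the 2 of 5 analysed (CD14 and CSF1R) summed to 21.9 to 31.8 normalized counts in DMSO and 29.5 to 44.96 in Tan I. These ranges overlapped, and their part in the ITGAX values was not tested.

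ITGAM, the gene next to ITGAX, which encodes CD11b, had 432.7, 500 and 519 normalized counts in DMSO and 478, 443 and 433.4 in Tan I. The libraries of the groups were mixed, and both the highest value and the lowest came from DMSO. Its log2 fold change was -0.10 (standard error 0.13, 95% interval -0.40 to 0.21), so on this scale neither a moderate decrease nor a small increase of the mRNA could be told from no difference. Over all the alternatives the value stayed below 0, between -0.18 and -0.04. The ratio of ITGAX to ITGAM per length, computed within each library and so free of the size factors, was 3.67, 2.99 and 3.22 in DMSO and 4.61, 4.90 and 4.30 in Tan I. Its mean was 1.40 times higher in Tan I, and the groups were apart; this ratio was added after the values were seen. The other ratios among these α subunits overlapped between the groups. ITGAX to ITGAL was 2.83, 2.46 and 3.08 in DMSO and 3.69, 3.28 and 3.04 in Tan I. ITGAM to ITGAL was 0.770, 0.822 and 0.955 in DMSO and 0.799, 0.671 and 0.707 in Tan I.

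ITGAL, the α subunit of LFA-1, had 974, 1055 and 942 normalized counts in DMSO and 1037, 1145 and 1063 in Tan I. Its log2 fold change was 0.13 (95% interval -0.13 to 0.38), and the groups overlapped by 1 library each, DMSO replicate 2 and Tan I replicate 1. ITGB2, the β chain that all 3 of these α subunits need to reach the surface, had 3287, 3770 and 3819 normalized counts in DMSO and 3626, 4106 and 4353 in Tan I, a log2 fold change of 0.15 (95% interval -0.14 to 0.44). Its Tan I replicate 1 lay below 2 of the DMSO libraries. An antisense gene, ITGB2-AS1, shares 303 exonic bases with ITGB2, and was listed at 12.5 to 30.6 normalized counts, under 1% of the ITGB2 values. Per length, the ratio of ITGB2 to the sum of ITGAL, ITGAM and ITGAX was 1.07 ± 0.07 in DMSO and 1.002 ± 0.15 in Tan I (SD over n = 3 libraries), and the groups overlapped.

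**Figure D3:**
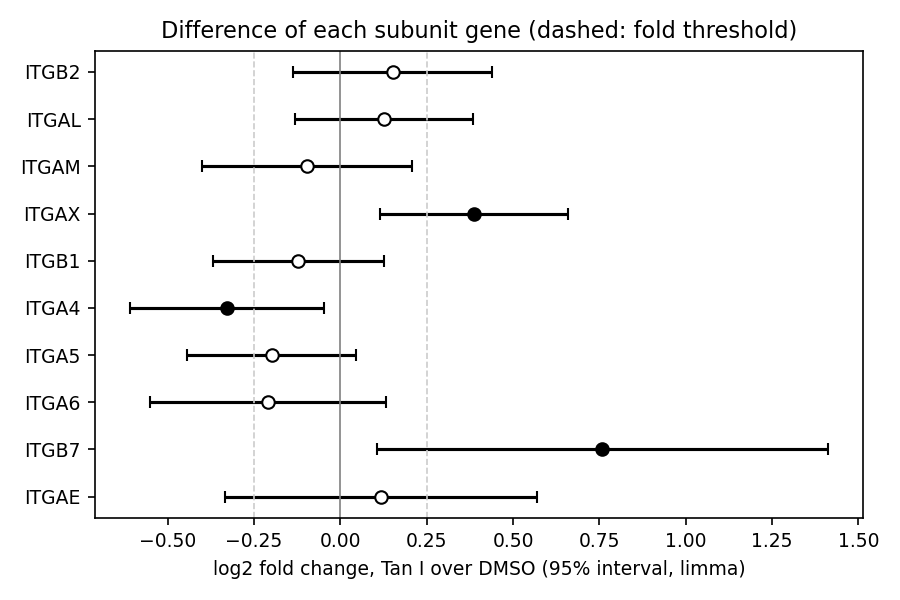
Log2 fold change (Tan I over DMSO) for each subunit gene (horizontal axis) with the 95% interval from limma, filled points for genes called without adjustment and dashed lines at the fold threshold. ITGAX (0.39), ITGA4 (-0.33) and ITGB7 (0.76) have intervals that do not include 0, and ITGB7 has the widest interval, from 0.11 to 1.41.

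The β1 group had lower means in Tan I for each of its 4 genes, of which only ITGA4 met the unadjusted rule. ITGA4, the α subunit of VLA-4 and of α4β7, had 2975, 2781 and 2633 normalized counts in DMSO and 2463, 2217 and 2015 in Tan I. The groups were apart, with DMSO replicate 3 and Tan I replicate 1 nearest to each other. The log2 fold change was -0.33 (standard error 0.12, 95% interval -0.61 to -0.05, limma). It ran from -0.26 without Tan I replicate 3, the library at one end of the first component, to -0.40 without Tan I replicate 1. The unadjusted call was kept in 9 of 17 alternatives, and of the single-library omissions only in that of Tan I replicate 1. CERKL, on the other strand, shares 2813 exonic bases with ITGA4; it was listed at 2.67 to 12.6 normalized counts, far below ITGA4.

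ITGA5, the α subunit of the fibronectin receptor, had 3328, 3380 and 3090 normalized counts in DMSO and 2822, 2996 and 2722 in Tan I. Each Tan I library was below each DMSO library, and the log2 fold change of -0.20 (95% interval -0.44 to 0.05) did not meet the rule. ITGB1, their common β chain, was nearly constant in DMSO (2436, 2415 and 2449 normalized counts). In Tan I it had 2414, 2231 and 2076, so that Tan I replicate 1 lay just under the lowest control, and the log2 fold change was -0.12 (95% interval -0.37 to 0.13). Without Tan I replicate 3 it was -0.07. ITGA6, the laminin receptor subunit, had 723, 601 and 663 normalized counts in DMSO and 660, 559 and 504 in Tan I, with overlapping groups and a log2 fold change of -0.21 (95% interval -0.55 to 0.13). Per length, the ratio of ITGB1 to the sum of ITGA4, ITGA5 and ITGA6 was 0.208 ± 0.01 in DMSO and 0.226 ± 0.007 in Tan I (SD over n = 3 libraries); the libraries overlapped, since DMSO replicate 3 (0.2199) lay just above Tan I replicate 2 (0.2197).

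Set against each other per length, the sum of ITGAL, ITGAM and ITGAX was 0.542, 0.566 and 0.628 times that of ITGA4, ITGA5 and ITGA6 in DMSO, and 0.810, 0.824 and 0.808 times in Tan I. This ratio was added after the values were seen, from genes already known to differ, so its direction was fixed by that choice. In its numerator ITGAX went from 279 to 365 per kb, while ITGAL went from 100.4 to 109.6 and ITGAM from 85.1 to 79.3. The ratio of ITGAX to ITGA4 alone, added in the same way, was 1.07 ± 0.11 in DMSO and 1.75 ± 0.08 in Tan I (SD over n = 3 libraries).

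**Figure D4:**
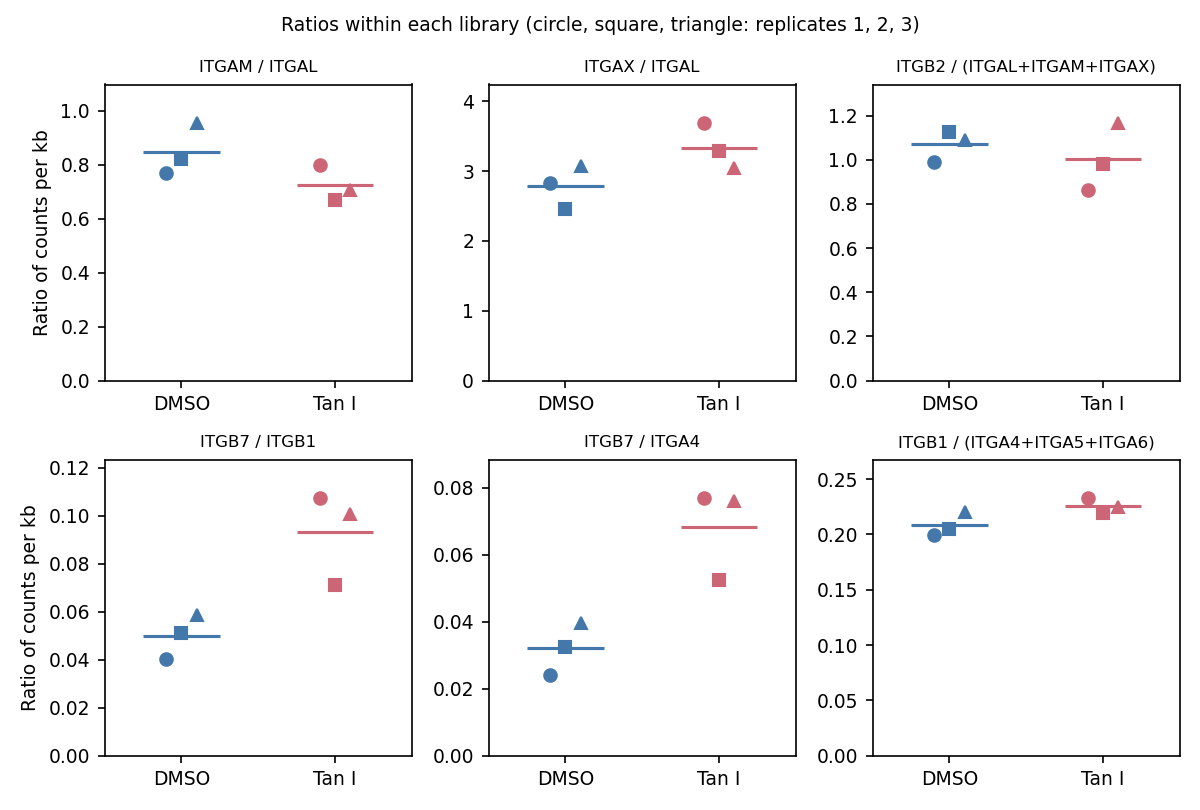
The 6 planned ratios of normalized counts per kilobase within each library (vertical axes, each from 0), blue for DMSO and red for Tan I, with a symbol per replicate and a line at the group mean. The groups are apart for ITGB7 over ITGB1 and ITGB7 over ITGA4, where the Tan I libraries are above, and overlap in the other 4 panels.

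ITGB7 showed the largest fold difference of the family, at the lowest level. It had 29.8, 37.6 and 43.8 normalized counts in DMSO and 79.2, 48.5 and 64.0 in Tan I, which came from 32, 39 and 56 reads and from 81, 46 and 48 reads. The groups were apart on the normalized scale, but the unnormalized reads overlapped: Tan I replicates 2 and 3 had fewer reads than DMSO replicate 3, the deepest library. The log2 fold change was 0.76 (standard error 0.28, 95% interval 0.11 to 1.41, limma). Leaving out 1 library moved it between 0.59 (without Tan I replicate 1) and 0.94 (without Tan I replicate 2), and the unadjusted call was lost without DMSO replicate 1, DMSO replicate 2, Tan I replicate 1 or Tan I replicate 3. After its gene set analysis of these libraries the study measured representative genes by RT-qPCR, and its text does not name them. Those RT-qPCR samples were not analysed here.

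ITGB7 shares 1881 of its 4451 exonic bases with ZNF740 on the opposite strand, and the strand setting of the counting is not given in the sources used here, so reads of this stretch cannot be assigned with certainty. ZNF740, a zinc finger gene, had 811, 841 and 863 normalized counts in DMSO and 873, 869 and 860 in Tan I, a log2 fold change of 0.05 (standard error 0.10). Its level was more than 10 times that of ITGB7 in each library, and its part in the ITGB7 values was not tested.

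Relative to ITGA4, an α partner, and to ITGB1, another β chain, ITGB7 was higher in Tan I. No ratio to ITGAE, its other partner, was computed. Per length, ITGB7 was 0.040, 0.051 and 0.058 times ITGB1 in DMSO and 0.107, 0.071 and 0.101 times in Tan I, a mean 1.87 times higher. Against ITGA4, the α subunit that pairs with either β chain, ITGB7 was 0.024, 0.032 and 0.040 in DMSO and 0.077, 0.052 and 0.076 in Tan I. The mean was 2.14 times higher, and the groups were apart in both ratios. ITGA4 and ITGB1 themselves had lower means in Tan I (log2 fold changes -0.33 and -0.12), which raises both ratios. The list was also made with this comparison known, so the ratios are no separate support for the ITGB7 difference. ITGB7 mRNA nevertheless remained under 11% of that of ITGB1 per length in each of the 6 libraries.

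ITGAE, the other partner of ITGB7, varied more among the Tan I libraries than between the group means. It had 583, 703 and 620 normalized counts in DMSO and 537, 686 and 880 in Tan I, so that both the lowest and the highest value were in Tan I. The log2 fold change of 0.12 (95% interval -0.33 to 0.57) became -0.06 without Tan I replicate 3 and 0.30 without Tan I replicate 1. Tan I replicate 3, the highest in ITGAE, was also the highest in CD3D (515 normalized counts, against 245 to 406 in the other 5 libraries) and in CD79B (741, against 340 to 631), lymphoid marker genes named after their values were seen. Of 5 T or NK cell markers, the 4 analysed summed to 468 to 562 in DMSO and 509 to 689 in Tan I, and of 4 B cell markers, the 3 analysed summed to 516 to 801 and 556 to 914. Their part in the ITGAE and ITGB7 values was not tested.

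Genes with a profile like that of ITGB7 or ITGAM were sought over the 6 libraries among 12621 genes with a mean of at least 50, by the smallest root mean square difference between centred log2 values. The nearest to ITGB7 were APLNR, the apelin receptor (0.20), NBEA (0.20) and FAM114A1 (0.23). APLNR had 34.5, 40.5 and 49.2 normalized counts in DMSO and 71.4, 70.6 and 69.3 in Tan I. The nearest to ITGAM were SLC16A5 (0.04), CMTR1 (0.05) and SBDSP1 (0.05), the last a pseudogene that may share reads with SBDS. For SLC16A5, DMSO had 296, 356 and 341 normalized counts and Tan I had 321, 296 and 299, mixed as for ITGAM. The likeness is a description over 6 libraries that share their depth and their place on the first component.

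Among the other integrin genes, 9 of 16 were tested, and 1 was called higher and 0 lower without adjustment, where 1.32% of all genes were called higher and 1.1% lower. This was ITGA2B (CD41), the platelet fibrinogen receptor subunit, with 1060, 1127 and 1077 normalized counts in DMSO and 1332, 1412 and 1418 in Tan I and a log2 fold change of 0.35 (standard error 0.10). ITGAV, the highest of the uncalled, had a log2 fold change of -0.12 (standard error 0.20). ITGB3, the usual partner of ITGA2B, was not found by symbol among the 18625 genes listed, so no value can be given for it. The median log2 fold change of these 9 genes was -0.12.

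Of 24 genes for integrin ligands, 13 were tested, of which 3 were called higher and 0 lower (1.32% and 1.1% of all genes), with a median log2 fold change of 0.10. ICAM1, the main ligand of LFA-1, had 242, 381 and 291 normalized counts in DMSO and 406, 430 and 487 in Tan I, a log2 fold change of 0.55 (standard error 0.19). THBS1, thrombospondin, had 258, 210 and 235 normalized counts in DMSO and 439, 367 and 329 in Tan I, a log2 fold change of 0.68 (standard error 0.16). JAM3, a junctional molecule that binds the ITGAM integrin, was at 5.47 to 8.67 normalized counts in DMSO and 13.7 to 15.8 in Tan I, from few reads. Its mean over all libraries, 10.8, lay just above the filter, with a DMSO mean of 6.89 and a Tan I mean of 14.7. At its DMSO level in both groups JAM3 would not have been tested. The count of 3 thus includes a call that the filter itself favoured. F11R, the highest of the uncalled, had a log2 fold change of 0.07 (standard error 0.18).

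Of 19 genes that switch integrins on or off, all 19 were tested, and 0 were called higher and 1 lower without adjustment, a share near that of all genes (2.42% in either direction). This was APBB1IP (RIAM), which brings talin to the membrane with RAP1, at 219, 261 and 240 normalized counts in DMSO and 183, 174 and 197 in Tan I (log2 fold change -0.37, standard error 0.15). Talin (TLN1) had a log2 fold change of -0.11 (standard error 0.16) and kindlin-3 (FERMT3) 0.35 (95% interval -0.15 to 0.85), neither of them called, although the FERMT3 value is as large as that of ITGA2B; they were named after their values were seen. FLNA, filamin A, the highest of the uncalled, had 0.08 (standard error 0.18). Of 25 signalling and linker genes, 22 were tested and 0 were called in either direction by limma without adjustment, which at 2.42% of all genes is also near the background. PLCG2, the highest of them, had a log2 fold change of -0.04 (standard error 0.16). The median log2 fold change was -0.02 over the activators and inhibitors and 0.02 over the signalling and linker genes.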

How the data were processed

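NB4 RNA-seq libraries (3 DMSO, 3 Tan I) were grouped by their titles. Paired-end reads had been mapped by the authors with STAR on GRCh38, kept where they mapped uniquely, counted with featureCounts and compared with DESeq2 (paper's methods); versions, annotation release and strand setting are not given in the sources used here. The authors deposited per-library signal as normalized counts (reads divided by a size factor). The authors' table also holds their own comparison (a log2 fold change, its error and a Wald score, and p-values), which was not used. No other per-sample column was present.

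Reads were recovered by dividing each value by the library's step; 100% came out whole within a relative tolerance of 0.0001. The recovered reads on the listed genes, 21502760 to 31679138 per library, set the counting precision. No library was a copy of another (lowest chi-square 5.89 per gene). limma 3.58.1 in R 4.3.3 (lmFit, eBayes with trend) was fitted to log2(normalized count + 1) of 16887 genes with a mean of at least 10, and 1738 were left out; p-values were adjusted by Benjamini-Hochberg over all genes tested. Alternatives were pseudocounts, filters, scalings, no trend, edgeR 4.0.16 (quasi-likelihood, TMM) and DESeq2 1.42.0 on those reads, a block for the replicate number, omission of each library, and a larger fold threshold; omission of DMSO replicate 2 and Tan I replicate 3 together was added after seeing the data. edgeR called 409 genes and DESeq2 420 without adjustment.

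The members and lists were chosen with earlier results of these data known. Named genes were the members, the called genes of 4 pathway lists, the highest uncalled gene of each list, and the 3 nearest profiles to ITGB7 and ITGAM; exceptions are marked, and genes on the opposite strand and marker genes are given where a result turns on them. Positions and lengths are from GENCODE release 44 (99.6% of identifiers matched) and promoter windows from RefSeq (GRCh38.p14). Marker lists not named in the report held few genes: the 1 of 4 megakaryocyte markers analysed (GP1BA) had 136 to 414 normalized counts in DMSO and 60.0 to 402 in Tan I, the 1 of 4 erythroid markers (ALAS2) 15.4 to 51.3 and 10.7 to 28.3, and the 1 of 3 mast cell or basophil markers (MS4A2) 28.0 to 30.5 and 21.1 to 32.0.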

Additional observations from a re-analysis of the deposited data

How the results depend on the processing

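Without adjustment, limma called 408 genes, 223 higher and 185 lower, and 3 members. Leaving out 1 library moved the gene count between 160 and 1496: 180 without DMSO replicate 1, 201 without DMSO replicate 3, 1496 without Tan I replicate 1, 160 without Tan I replicate 2 and 271 without Tan I replicate 3. The members called then ran from 1 to 2: ITGAX alone without DMSO replicate 1, without DMSO replicate 2 or without Tan I replicate 3, ITGB7 alone without Tan I replicate 2, ITGAX and ITGB7 without DMSO replicate 3, and ITGAX and ITGA4 without Tan I replicate 1. Without DMSO replicate 2 and Tan I replicate 3 together, 477 genes and 1 member (ITGAX) were called, and 2 genes after adjustment. After scaling the libraries to equal totals, 188 genes were higher and 250 lower, the median of all genes was -0.06 and 1 member (ITGB7) was called. With a fold threshold of 1 on the log2 scale, 49 genes and 0 members remained. After adjustment DESeq2 called 16 genes and 0 members, and edgeR 0 genes, as limma did; without adjustment edgeR and DESeq2 each called 3 members. The replicate numbers did not pair the libraries (correlations of deviations 0.75, -0.09 and -0.45), and with the replicate block 348 genes and 3 members were called. ITGAE changed sign in 1 of 17 alternatives; the other 9 members kept their sign in all 17. The cause of these shifts was not tested. With 32 to 81 reads per library, ITGB7 is the member whose precision is most limited by depth.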
